A study of Homo sapiens with 23 samples.

Results

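The cholesterol and fatty acid synthesis genes are a list of 31 genes of the SREBP pathway and its targets, chosen by symbol and matched by NCBI Gene ID. All 31 were found among the 21658 genes of the deposited table. The study asked what changes when ovarian cancer cells become resistant to prexasertib, an inhibitor of the checkpoint kinase CHK1. RNA of Kuramochi, OVSAHO, OV-90 and EFO-21, which are 4 established lines of ovarian cancer, was sequenced in the parental form and in a prexasertib-resistant form, which had been raised by long exposure to increasing drug concentrations. Each of the 8 groups had 3 libraries, except parental OV-90 with 2, giving 23 in all. Parental cells are the starting lines, and the labels do not say whether drug was present when the resistant cells were harvested or whether a resistant line is 1 clone.

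SREBP transcription factors are made as membrane proteins of the endoplasmic reticulum, where the escort protein SCAP carries them to the Golgi for cleavage when sterols are low. INSIG proteins hold SCAP back when sterols are high, and the freed factor enters the nucleus and switches on genes for the synthesis of cholesterol (mainly SREBP2, from SREBF2) and of fatty acids (mainly SREBP1, from SREBF1). Many tumour cells rely on this pathway for membrane lipids.

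The values are log2 expression values, normalized by the authors so that every library has the same distribution. They are not scaled by gene length, so levels are compared between lines for 1 gene and never between genes. The table holds no read counts, so sequencing depth is unknown and counting error cannot be given. Changes below are the resistant mean minus the parental mean on the log2 scale, with the standard error (SE) from limma and a p-value adjusted over all 21658 genes, and a member passed at an adjusted p under 0.05. The labels call the libraries of a group biological replicates, and the authors describe replicate, mostly triplicate, cultures. Within a line these p-values therefore measure the spread between these libraries. An exact permutation test of 3 against 3 or 2 against 3 libraries cannot give a two-sided p below 0.1 and was not used. Groups that do not overlap were common over all genes. Of the 21658 genes, 6212 lay apart to higher and 6610 to lower values in Kuramochi, and 5331 and 5143 in OVSAHO. In OV-90 these numbers were 6935 and 8036, and in EFO-21 6592 and 6346. Where groups are said below not to overlap, this describes the values and is not further evidence. In bulk RNA, fewer cells expressing a gene and less RNA per cell cannot be told apart. Parental libraries carry the numbers 2 to 12 and resistant libraries 13 to 24, so an effect that follows this numbering cannot be told apart from resistance.

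Over all genes the libraries of a group were alike except in 2 places. In parental OV-90, library 2 and library 3 differed by a median of 0.36 over all genes and 0.45 over the members, with a Pearson correlation of 0.952 across genes, which are not independent replicates. For 25 of the 31 members library 3 lay between library 2 and the mean of the resistant libraries. The spread of SCD, the desaturase that makes oleate, shows the size of this, with 8.45 in library 2 and 9.87 in library 3, against 11.01, 10.77 and 11.13 in resistant libraries 13, 14 and 15. In Kuramochi, parental library 4 differed from the rest of its group by a median of 0.29 over all genes. Counts of calls for OV-90 and Kuramochi are therefore given with and without these libraries. In EFO-21, parental library 11 differed from the rest of its group by a median of 0.13 over all genes. Over the members it lay above the rest by a median of 0.15, and above library 10 for 25 of the 31. The median change of the members in EFO-21 was -0.12. With any 1 library of this line left out, 12 to 16 members fell and 3 to 5 rose. No share of all genes is given for those fits, and the part of library 11 in the median change was not tested.

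**Figure D1:**
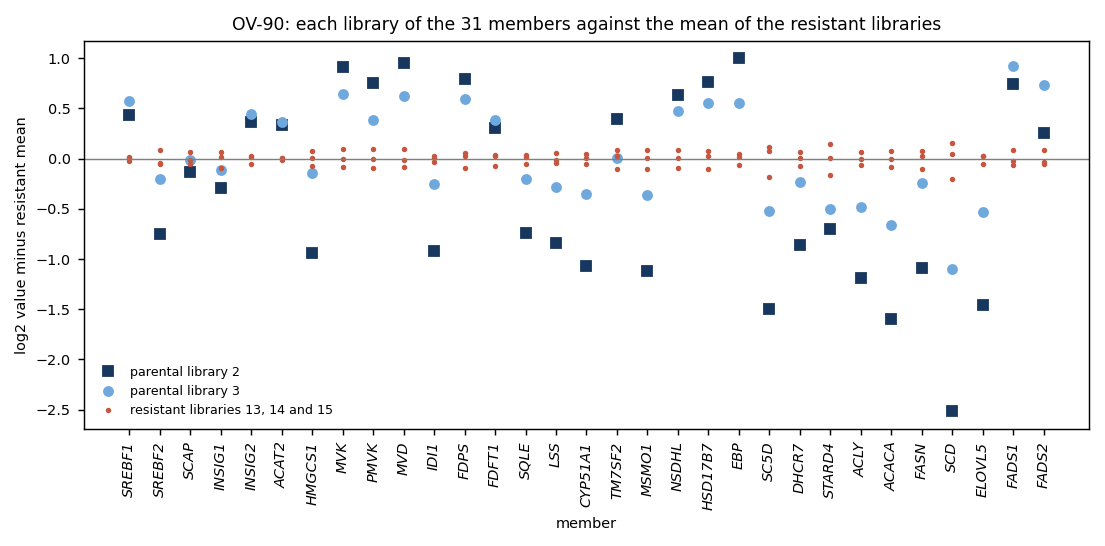
Each OV-90 library minus the mean of the resistant OV-90 libraries (log2, vertical axis) for the 31 members (horizontal axis); squares are parental library 2, large circles parental library 3 and small dots the resistant libraries. For 25 of 31 members the circle lies between the square and the resistant mean at 0, and the resistant dots lie close together.

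Promoter sequences are shown because the members share a known control through short promoter elements. Of the 31 members, 27 matched the RefSeq promoter table (assembly GRCh38.p14), with 37 promoters of 300 bases that run from 250 bases before to 50 bases after a start site. ACAT2, FDFT1, SQLE and FASN had no entry. The sterol regulatory element TCACNCCAC, searched on both strands, was in 1 of the 37 promoters and in 1.13% of all 35116 promoters of the table. Its core CACNCCAC, which also matches every TCACNCCAC, was in 7 promoters of 6 members (SREBF2, INSIG1, IDI1, SC5D, ACACA and SCD), and in 5.87% of all promoters. CCAAT, the letters bound by NF-Y, was in 25 of 37 against 34.6% of all, GGGCGG, the GC box, in 32 of 37 against 45.0%, and CACGTG, the E-box, in 6 of 37 against 7.26%. A match is a description of letters and not a shown binding site. The SC5D match, 13 bases after the start and in the UTR, is not shown. The windows of 28 bases below, of the other 5 members, run 5′ to 3′ on the strand of the gene, with the 8 letters of the core, or their reverse complement, in capitals. Their positions come from an exact match of the whole promoter to GRCh37, the build of the authors' alignment, and the annotation at the motif is from GENCODE lifted to that build.
SREBF2, chr22:42228967-42228994, plus strand, 132 bases before the start, in an exon of the antisense gene SREBF2-AS1 and inside the full element: gacgcgccatCACCCCACgcaccgcttc
INSIG1, chr7:155089370-155089397, plus strand, 208 bases before the start, outside annotated genes: cgggccggcgGTGGCGTGtgcgcacgtc
IDI1, chr10:1094924-1094951, minus strand, 115 bases before the start, in annotated IDI1 coding sequence: gccgggcgatGTGGCGTGgactggcgct
ACACA, chr17:35656899-35656926, minus strand, 224 bases before the start, inside the annotated ACACA gene and outside its exons: ttccctagtaGTGGCGTGtttcctttct
SCD, chr10:102106866-102106893, plus strand, 114 bases before the start, outside annotated genes: cagaggccggGTGGTGTGgtgtcggtgt

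Resistance went with different changes of the pathway in each line. In resistant Kuramochi most members were lower, in resistant OVSAHO more were higher than lower and each fatty acid gene was higher, in resistant EFO-21 most of those past the test were lower, and in resistant OV-90 12 members of the control, mevalonate, sterol and fatty acid groups were lower while 3 fatty acid genes and STARD4 were higher. The 16 calls in OV-90 were all lost when 1 of the resistant libraries was left out, and a fit of 23 libraries gave 15 higher and 13 lower there, against 28.1% and 26.7% of all genes. Within the lines, the most in which a member passed in the same direction was 3. Of the 31, 6 did so, namely SREBF1, ACAT2, MVK, IDI1 and EBP to lower and ELOVL5 to higher values, against 10.9% of all genes with at least 3 such lines. In both directions in different lines 15 passed, against 25.4% of all genes, and each of the 31 passed in at least 1 line, as 84.6% of all genes did. In the fit of 23 libraries, which shares 1 estimate of spread over the lines, ELOVL5 passed to higher values in all 4 lines, and ACAT2, MVK, IDI1 and FADS2 to lower values in 3, which is 5 of the 31 in at least 3 lines against 12% of all genes.

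In Kuramochi 3 members rose and 19 fell, and 9 did not pass, where 23.6% of all genes rose and 23.3% fell. The median change of the members was -0.55 against -0.02 over all genes. With a change of at least 2-fold as well, 1 member rose and 8 fell, against 11.8% and 10.6% of all genes. Without parental library 4 the counts were 4 and 20, against 25.1% and 25.4% of all genes, since all 22 calls held and ACLY rose (0.44, adjusted p = 0.00792) and EBP fell (-0.32, adjusted p = 0.0386) as well. The change was then -1.70 for HMGCS1, -0.95 for SCD, 1.24 for ELOVL5, 0.62 for NSDHL and -4.27 for STARD4. In OVSAHO 16 members rose and 4 fell, against 17.1% and 16.2% of all genes, with a median change of 0.16 against 0.00. These were small changes, since 0 members reached 2-fold in either direction in the limma fit, at the adjusted or at an unadjusted p under 0.05, against 3.93% and 3.83% of all genes. With the 23 libraries in one fit 11 members rose and 2 fell there, against 13.4% and 12.7% of all genes.

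In OV-90 4 members rose and 12 fell, against 18.1% and 17.9% of all genes, with a median of 0.20 against -0.06, and at an unadjusted p under 0.05 there were 13 higher and 13 lower, against 25% and 25.8% of all genes. At 2-fold or more 2 members rose and 0 fell, the latter also at an unadjusted p, against 9.50% and 6.56% of all genes. These calls rest on few libraries. Without parental library 2 the counts were 7 and 12, against 18.1% and 14.6% of all genes, and without library 3 they were 15 and 13, against 28.8% and 27.8%, each fit then leaving 1 parental library that is assumed to vary like the others. Without resistant library 13, 14 or 15 the limma fit called 0 members, with the smallest adjusted p among them at 0.0757, 0.0653 and 0.0733, and 1.46%, 2.05% and 1.70% of all genes passed. At an unadjusted p under 0.05 these fits had 3, 5 and 3 members higher and 13, 12 and 12 lower. No share of all genes at an unadjusted p is given for these fits, so these counts are not read as calls that held. All 16 OV-90 calls were thus lost without 1 of the resistant libraries, with adjusted p up to 0.161, and those of PMVK and STARD4 also without parental library 2. Without the mean-variance trend the OV-90 calls of PMVK, FDFT1, ACLY and ACACA were lost (adjusted p = 0.0532, 0.06, 0.058 and 0.0518). The OV-90 calls of members named below share the loss without a resistant library. For the other pathway genes and the markers, fits with a library left out are not given. In EFO-21 4 members rose and 13 fell, against 25% and 23.4% of all genes, with a median of -0.12 against 0.01. At 2-fold or more 0 members rose, also at an unadjusted p, and 4 fell, against 7.11% and 7.15% of all genes. The share of members that fell was above that of all genes in Kuramochi and EFO-21, and the share that rose was above it in OVSAHO. The share that fell was also above it in OV-90 (12 of 31 against 17.9%), where all calls were lost without 1 of the resistant libraries. For OV-90 the balance of higher and lower members depended on the fit.

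**Figure D2:**
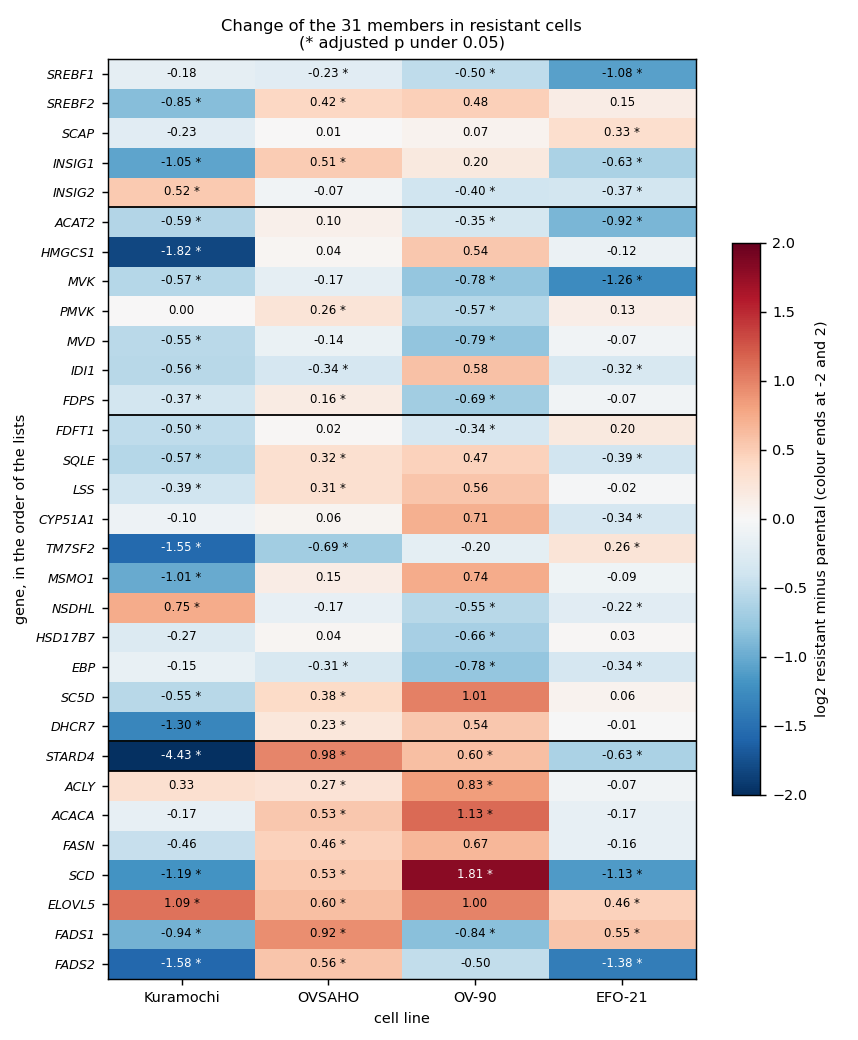
Change of the 31 members (rows, in the order of their roles, black lines between roles) in the 4 lines (columns); colour and number give the log2 resistant minus parental change and a star marks an adjusted p under 0.05. Kuramochi has 19 lower and 3 higher starred genes, and OVSAHO 4 lower and 16 higher.

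The lines already differed before resistance, for the members about as often as for all genes. In the limma F test over the 4 parental groups 28 of 31 members passed, where 93.5% of all genes did, and the count was 30 without OV-90 library 2, 29 without OV-90 library 3 and 29 without Kuramochi library 4, against 92.8%, 94.2% and 92.9% of all genes. The widest ranges of parental means were those of FADS2, from 5.74 in Kuramochi to 9.36 in OV-90, ELOVL5, from 4.77 in OV-90 to 8.22 in EFO-21, SC5D, from 6.19 in OVSAHO to 9.36 in Kuramochi, and STARD4, from 3.66 in OVSAHO to 6.72 in EFO-21. Of the 18 genes of the mevalonate steps and the sterol branch, 11 had their lowest parental mean in OVSAHO, 3 in Kuramochi, 2 in OV-90 and 2 in EFO-21. The shares of all genes with their lowest mean in each line are not given, so these counts cannot be set against all genes. SCAP, with means from 7.48 to 7.53, IDI1 and SCD were the 3 that did not pass.

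The SREBP control genes set how much factor reaches the nucleus. SREBF1 was lower in every resistant line and passed in 3 of them. In EFO-21 its values were 7.79, 8.14 and 7.72 in the parental and 6.90, 6.82 and 6.69 in the resistant libraries. All 3 resistant libraries were below all parental ones, and the gene fell by 1.08 (SE 0.12, adjusted p = 0.00100). In OV-90 the parental values were 7.79 and 7.93 and the resistant ones 7.37, 7.37 and 7.33, a change of -0.50 (adjusted p = 0.0198), in OVSAHO the change was -0.23 (adjusted p = 0.0124), and in Kuramochi -0.18, which did not pass (adjusted p = 0.12). The OVSAHO call was lost in the fit of 23 libraries (adjusted p = 0.065), and the OV-90 call without library 13, 14 or 15 (adjusted p up to 0.0952). The change in EFO-21 minus the mean change of the other 3 lines was -0.77 (SE 0.11, adjusted p = 8.21e-06).

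SREBF2 moved in opposite directions. In Kuramochi it was at 9.06, 8.84 and 8.87 in parental and at 8.14, 8.08 and 8.0 in resistant libraries, and in OVSAHO at 7.84, 7.86 and 7.94 against 8.29, 8.32 and 8.28. The groups did not overlap in either line, with a change of -0.85 in Kuramochi (adjusted p = 0.000379) and of 0.42 in OVSAHO (adjusted p = 0.00125). In OV-90 its change of 0.48 did not pass within the line (adjusted p = 0.0908) but did in the fit of 23 libraries (adjusted p = 0.00144), and was 0.21 without parental library 2 and 0.75 without library 3. Its window above holds the only full sterol regulatory element found in the 37 promoters. INSIG1, itself an SREBP target that retains SCAP, followed the same pair of directions. It went from 6.14, 6.34 and 6.43 to 5.16, 5.39 and 5.20 in Kuramochi, a change of -1.05 (SE 0.14, adjusted p = 0.00126), and from 5.72, 5.89 and 5.65 to 6.40, 6.29 and 6.08 in OVSAHO, a change of 0.51 (adjusted p = 0.0217). It also fell in EFO-21, from 8.20, 8.52 and 8.18 to 7.67, 7.65 and 7.68. The OVSAHO call of INSIG1 was lost without library 7, 9, 19 or 20 (adjusted p up to 0.0751). INSIG2, its paralog, rose in Kuramochi, by 0.52 (adjusted p = 0.0246), and was lower in OV-90 and EFO-21, where it fell by 0.40 and 0.37. The Kuramochi call was lost without library 6, 16 or 17 (adjusted p up to 0.0937) and the EFO-21 call without library 10 (adjusted p = 0.0594). SCAP rose by 0.33 in EFO-21 (adjusted p = 0.00262) and was between -0.23 and 0.07 in the other lines, where it did not pass within the line, though in the fit of 23 libraries it passed in Kuramochi (adjusted p = 0.00511).

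**Figure D3:**
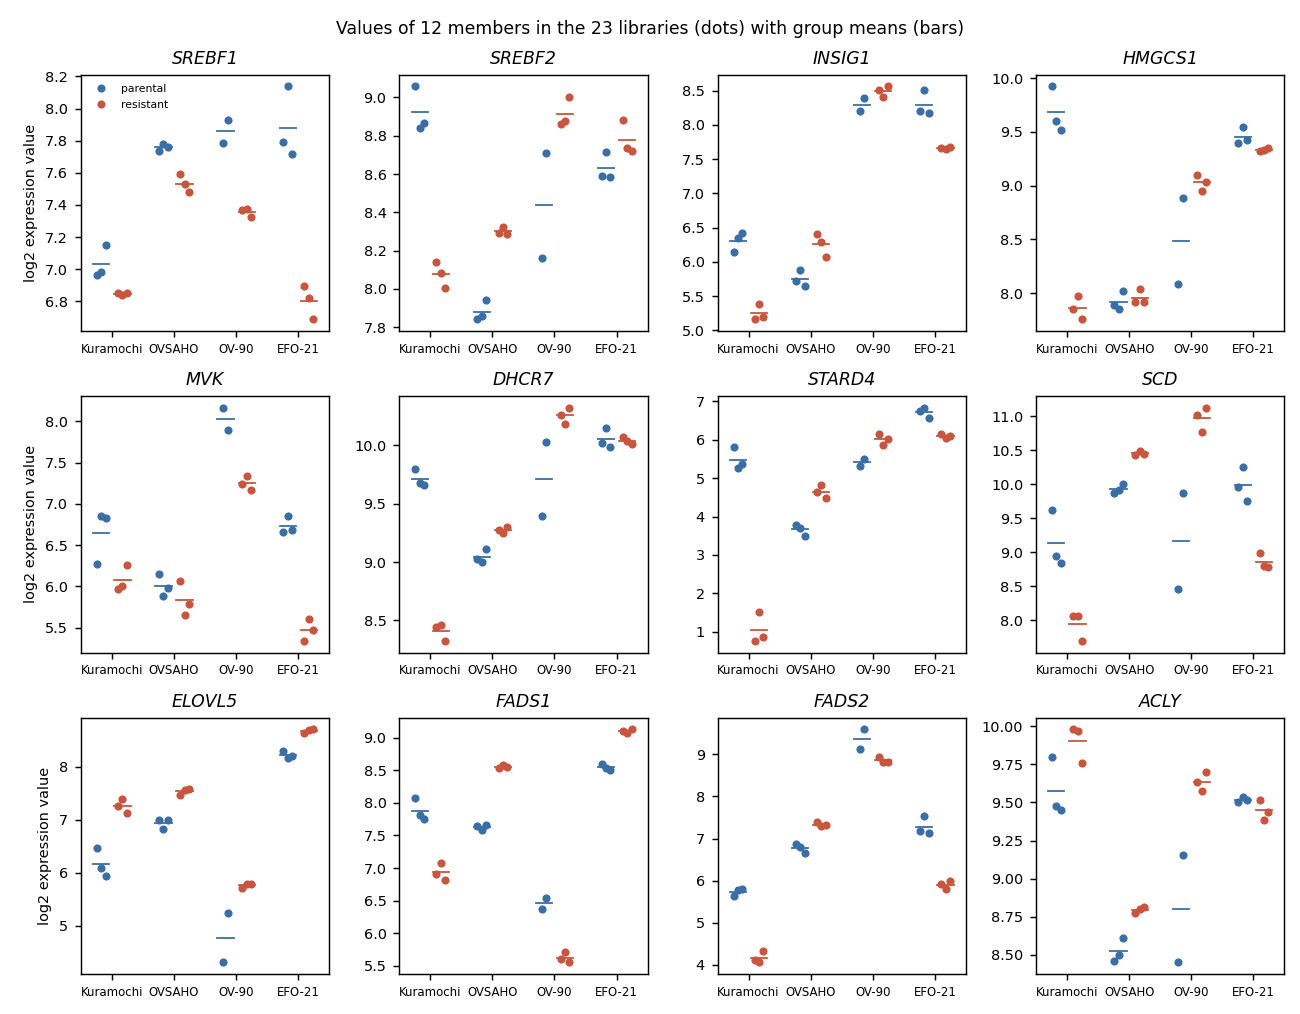
Log2 expression values (vertical axes, which do not start at 0) of 12 members in each library of the 4 lines, parental in blue and resistant in red, with bars at the group means. Resistant Kuramochi libraries of STARD4 lie between 0.76 and 1.52, and the 2 parental OV-90 libraries of SCD lie at 8.45 and 9.87.

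The mevalonate enzymes turn acetyl-CoA into farnesyl diphosphate. In Kuramochi 6 of the 7 fell, in OV-90 5 fell, in EFO-21 3 fell, and in OVSAHO 2 rose and 1 fell. Of all genes, 23.3% fell in Kuramochi, 17.9% in OV-90 and 23.4% in EFO-21, and in OVSAHO 17.1% rose and 16.2% fell. Counts near these shares are not read as results. HMGCS1, the cytosolic HMG-CoA synthase, gave the largest change of the 7. Its parental Kuramochi values were 9.92, 9.60 and 9.52 and its resistant values 7.85, 7.98 and 7.76. The groups were far apart and the gene fell by 1.82 (SE 0.12, adjusted p = 9.38e-05), which is 3.53-fold. Within the other lines HMGCS1 did not pass, with changes of 0.04 in OVSAHO, 0.54 in OV-90 and -0.12 in EFO-21, though the OV-90 change passed in the fit of 23 libraries (adjusted p = 0.00612) and was 0.15 without parental library 2 and 0.94 without library 3. The Kuramochi change was lower than their mean by -1.97 (adjusted p = 7.98e-09).

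MVK, mevalonate kinase, was lower in 3 lines. In EFO-21 it went from 6.66, 6.85 and 6.69 to 5.34, 5.60 and 5.47, with no overlap, a change of -1.26 (SE 0.10, adjusted p = 0.000265). In OV-90 it went from 8.17 and 7.90 to 7.24, 7.34 and 7.16 (-0.78, adjusted p = 0.0176). The Kuramochi change of -0.57 passed at an adjusted p of 0.0478 and was lost without library 5, 6, 16, 17 or 18 (adjusted p up to 0.141) and without the trend (adjusted p = 0.0583). ACAT2, the cytosolic acetyl-CoA acetyltransferase of the first step, fell by 0.59 in Kuramochi, 0.35 in OV-90 and 0.92 in EFO-21. The EFO-21 libraries of ACAT2 were at 8.67, 8.80 and 8.63 before and 7.65, 7.95 and 7.74 after resistance, and did not overlap.

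The later steps passed in different lines. IDI1, isopentenyl diphosphate isomerase, fell by 0.56 in Kuramochi, 0.34 in OVSAHO and 0.32 in EFO-21, and in OV-90 its change of 0.58 did not pass within the line (adjusted p = 0.0815) but did in the fit of 23 libraries (adjusted p = 0.000678), and was 0.25 without parental library 2 and 0.92 without library 3. MVD, the decarboxylase, fell by 0.55 in Kuramochi and 0.79 in OV-90. FDPS, farnesyl diphosphate synthase, fell by 0.37 in Kuramochi and 0.69 in OV-90 and rose by 0.16 in OVSAHO, and PMVK, phosphomevalonate kinase, fell by 0.57 in OV-90 and rose by 0.26 in OVSAHO. Reads of FDPS may be shared with its processed pseudogenes, so its values are uncertain. The Kuramochi calls of MVD (lost without library 5, 6, 16 or 17, adjusted p up to 0.0713) and FDPS (lost without library 5, 6, 16, 17 or 18, up to 0.0984) and the OVSAHO call of FDPS (lost without library 7, 8, 19 or 20, up to 0.0908) each rest on few libraries. FDPS was also lost without the trend in Kuramochi (adjusted p = 0.0561) and OVSAHO (adjusted p = 0.0887), and in OVSAHO in the fit of 23 libraries (adjusted p = 0.16).

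The sterol branch holds the 11 genes that build cholesterol from farnesyl diphosphate. In Kuramochi 7 fell and 1 rose, in OVSAHO 4 rose and 2 fell, in OV-90 4 fell, and in EFO-21 4 fell and 1 rose. Of all genes, 23.3% fell and 23.6% rose in Kuramochi, and 17.1% rose and 16.2% fell in OVSAHO. In OV-90 17.9% fell, and in EFO-21 23.4% fell and 25% rose. Counts near these shares are not read as results. DHCR7, the reductase of the last steps, was at 9.79, 9.68 and 9.66 in parental and 8.45, 8.46 and 8.32 in resistant Kuramochi. All resistant libraries were lower, and DHCR7 fell by 1.3 (SE 0.07, adjusted p = 3.93e-05). In OVSAHO it went from 9.03, 9.0 and 9.11 to 9.27, 9.25 and 9.30, a small rise of 0.23 (adjusted p = 0.00794), and in EFO-21 the groups overlapped. The OVSAHO call was lost in the fit of 23 libraries (adjusted p = 0.114). The Kuramochi change was lower than the mean of the other lines by -1.55 (adjusted p = 3.85e-09).

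MSMO1, the sterol methyl oxidase, and TM7SF2, a sterol reductase of the nuclear envelope and endoplasmic reticulum, also fell past 2-fold in Kuramochi. MSMO1 went from 8.70, 8.51 and 8.45 to 7.55, 7.56 and 7.50 (-1.01, adjusted p = 0.000195). TM7SF2 went from 8.74, 9.02 and 9.12 to 7.39, 7.30 and 7.54 (-1.55, adjusted p = 0.000159). Neither gene had overlapping groups there. TM7SF2 fell in OVSAHO too, by 0.69 (adjusted p = 0.000851), and rose by 0.26 in EFO-21, a call that was lost without library 10, 12, 23 or 24 (adjusted p up to 0.0617) and in the fit of 23 libraries (adjusted p = 0.0523).

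SQLE, squalene epoxidase, fell by 0.57 in Kuramochi and 0.39 in EFO-21 and rose by 0.32 in OVSAHO. LSS, lanosterol synthase, fell by 0.39 in Kuramochi and rose by 0.31 in OVSAHO, and SC5D, the sterol desaturase, fell by 0.55 and rose by 0.38 in the same lines. The OVSAHO call of LSS was lost without library 20 (adjusted p = 0.0505), and that of SC5D in the fit of 23 libraries (adjusted p = 0.0935). FDFT1, squalene synthase, fell by 0.50 in Kuramochi and 0.34 in OV-90. CYP51A1, lanosterol demethylase, passed within the line in EFO-21 (-0.34, adjusted p = 0.0306), and this was lost without library 10, 11, 12 or 23 (adjusted p up to 0.0851), in the fit of 23 libraries (0.0512) and without the trend (0.0509). That fit called CYP51A1 in OV-90 instead, to higher values (adjusted p = 0.000777), and FDFT1 in EFO-21 (0.20, adjusted p = 0.0437).

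NSDHL, the X-linked sterol dehydrogenase, was the only gene of the sterol branch that rose in Kuramochi, where 7 fell and 3 did not pass. It was at 7.18, 7.55 and 7.60 in parental and 8.16, 8.08 and 8.33 in resistant libraries. It rose by 0.75 there (SE 0.13, adjusted p = 0.00476) and fell by 0.55 in OV-90 and 0.22 in EFO-21, and the Kuramochi change was above the mean of the other lines by 1.06 (adjusted p = 1.14e-07). EBP, the sterol isomerase, fell by 0.78 in OV-90, 0.31 in OVSAHO and 0.34 in EFO-21. In the fit of 23 libraries the EFO-21 call of NSDHL (adjusted p = 0.0589) and the OVSAHO call of EBP (adjusted p = 0.0744) were lost. HSD17B7, the sterol ketoreductase, fell by 0.66 in OV-90, and its reads may be shared with a near-identical pseudogene.

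In OV-90 the sterol branch was divided. NSDHL, EBP, HSD17B7 and FDFT1 fell, while SQLE, LSS, CYP51A1, MSMO1, SC5D and DHCR7 had changes between 0.47 and 1.01 that did not pass within the line (adjusted p from 0.0592 to 0.0872). All 6 passed in the fit of 23 libraries, with adjusted p from 0.000152 for SC5D to 0.00103 for SQLE. For SC5D the parental libraries were at 6.97 and 7.94 and the resistant ones at 8.54, 8.28 and 8.58. The 6 changes lay between 0.20 (SQLE) and 0.52 (SC5D) without parental library 2 and between 0.74 (SQLE) and 1.49 (SC5D) without library 3.

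**Figure D4:**
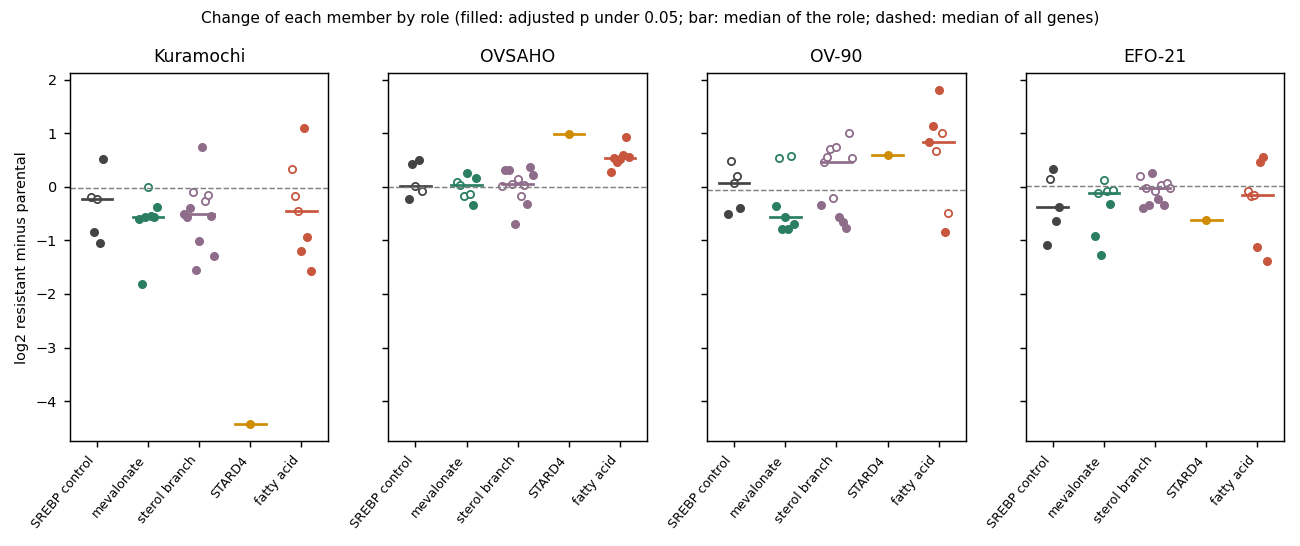
Log2 resistant minus parental change (vertical axis) of each member, grouped by role (horizontal axis), in the 4 lines; filled circles passed at an adjusted p under 0.05, bars are medians of a role and the dashed line is the median of all genes. In OVSAHO all 7 fatty acid genes are filled and above 0, and in Kuramochi STARD4 lies at -4.43.

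STARD4 carries sterol between membranes and is an SREBP target (chr5:110831731-110848288 in GRCh37, minus strand). It had the widest difference of all members. In Kuramochi the parental libraries were at 5.81, 5.26 and 5.38 and the resistant ones at 0.76, 1.52 and 0.86. All 3 resistant libraries lay in the lowest 10% of values of their library, so the log2 difference of -4.43 (SE 0.29, adjusted p = 8.54e-05) is not a measured fold. In OVSAHO STARD4 went the other way, from 3.79, 3.70 and 3.5 to 4.63, 4.81 and 4.48, with no overlap, and rose by 0.98 (SE 0.16, adjusted p = 0.00678). In OV-90 it went from 5.31 and 5.51 to 6.16, 5.85 and 6.02 (0.60, adjusted p = 0.046), and in EFO-21 from 6.75, 6.83 and 6.57 to 6.15, 6.04 and 6.09 (-0.63, adjusted p = 0.00215). The effect in Kuramochi was below the mean of the other lines by -4.75 (SE 0.21, adjusted p = 1.83e-12).

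The fatty acid genes make, lengthen and desaturate fatty acids. In OVSAHO all 7 rose, with a median change of 0.53, and these calls held with each 1 library of the line left out. In the fit of 23 libraries the OVSAHO calls of SCD and ACLY were lost (adjusted p = 0.137 and 0.115). In OV-90 3 rose and 1 fell, in Kuramochi 1 rose and 3 fell, and in EFO-21 2 rose and 2 fell. Of all genes, 17.1% rose in OVSAHO, 18.1% rose and 17.9% fell in OV-90, and 23.6% and 23.3% in Kuramochi. In EFO-21 25% rose and 23.4% fell, and the counts there are near these shares. SCD had opposite changes in 2 pairs of lines. It went from 9.62, 8.94 and 8.84 to 8.07, 8.06 and 7.69 in Kuramochi, and from 9.96, 10.25 and 9.75 to 8.99, 8.79 and 8.79 in EFO-21. In both lines all resistant libraries were below the parental ones, and SCD fell by 1.19 (SE 0.23, adjusted p = 0.00618) and by 1.13 (SE 0.13, adjusted p = 0.00110). In OVSAHO SCD went from 9.86, 9.91 and 10.01 to 10.43, 10.49 and 10.44 and rose by 0.53 (adjusted p = 0.000791). In OV-90 it rose by 1.81 (SE 0.43, adjusted p = 0.0361), with a change between 1.10 and 2.51 when 1 library was left out.

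FADS1 and FADS2, the delta-5 and delta-6 desaturases of polyunsaturated fatty acids, are neighbours on chromosome 11 (chr11:61567099-61596790, minus strand, and chr11:61560452-61634826, plus strand, in GRCh37). Their annotated extents overlap on opposite strands, and it is not given in the sources used here whether reads were counted by strand, so reads in the overlap are uncertain. In OVSAHO both rose and in Kuramochi both fell, while in EFO-21 they moved apart. FADS1 in EFO-21 went from 8.60, 8.53 and 8.5 to 9.10, 9.07 and 9.13, a rise of 0.55 (SE 0.04, adjusted p = 0.000144). FADS2 in EFO-21 went from 7.18, 7.54 and 7.13 to 5.91, 5.81 and 5.98, a change of -1.38 (SE 0.12, adjusted p = 0.000423). Neither gene had overlapping groups in that line.

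In Kuramochi FADS1 went from 8.07, 7.81 and 7.75 to 6.90, 7.08 and 6.82 (-0.94, adjusted p = 0.00110), and FADS2 from 5.63, 5.78 and 5.81 to 4.11, 4.05 and 4.31 (-1.58, adjusted p = 0.000396). In OVSAHO FADS1 went from 7.64, 7.58 and 7.67 to 8.54, 8.59 and 8.54 (0.92, adjusted p = 9.47e-05) and FADS2 rose by 0.56 (adjusted p = 0.00272). Groups were apart in each case, as they were for many genes of the table. In OV-90 FADS1 fell by 0.84 (adjusted p = 0.019), and the change of FADS2 of -0.50 did not pass within the line but did in the fit of 23 libraries (adjusted p = 0.00424), and was -0.74 without parental library 2 and -0.26 without library 3.

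ELOVL5, the elongase that acts with these desaturases, had a higher mean in each resistant line and passed in 3 of them. It went from 6.47, 6.09 and 5.94 to 7.26, 7.39 and 7.12 in Kuramochi, from 6.99, 6.83 and 6.99 to 7.47, 7.56 and 7.59 in OVSAHO, and from 8.29, 8.17 and 8.20 to 8.64, 8.69 and 8.71 in EFO-21. It rose in each of these lines, by 1.09, 0.60 and 0.46 (adjusted p = 0.00218, 0.00182 and 0.000492), and in OV-90 the change of 1.0 did not pass within the line (adjusted p = 0.0604) but did in the fit of 23 libraries (adjusted p = 0.00019), and was 0.53 without parental library 2 and 1.46 without library 3. ACLY, which makes cytosolic acetyl-CoA from citrate, rose by 0.27 in OVSAHO and 0.83 in OV-90, and in Kuramochi its change of 0.33 passed in the fit of 23 libraries (adjusted p = 0.0322) and not within the line. ACACA, acetyl-CoA carboxylase, rose by 0.53 in OVSAHO and 1.13 in OV-90. Without parental library 2 the OV-90 changes were 0.48 for ACLY and 0.67 for ACACA, and without library 3 they were 1.19 and 1.60. FASN, fatty acid synthase, passed within the line in OVSAHO, from 10.18, 10.34 and 10.40 to 10.76, 10.82 and 10.73, a rise of 0.46 (adjusted p = 0.00348). In the fit of 23 libraries FASN also passed in OV-90 (0.67, adjusted p = 0.00556) and Kuramochi (-0.46, adjusted p = 0.0266), and its OV-90 change was 0.25 without parental library 2 and 1.09 without library 3.

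Over the 4 lines together, with the line as a block, 2 members rose and 8 fell, where 16.4% and 16.6% of all genes did. This fit takes the 23 libraries as replicates of resistance, though there are 4 resistant lines. Its spread also holds the disagreement between lines, so its p-values do not measure how resistant lines in general vary. ELOVL5 rose by 0.78 (SE 0.10, adjusted p = 1.54e-05) and ACLY by 0.32 (adjusted p = 0.0129). The 8 that fell on average were SREBF1, ACAT2, MVK, MVD, FDPS, TM7SF2, EBP and FADS2, by between 0.22 for FDPS and 0.74 for FADS2. Of these, TM7SF2 passed to higher values within EFO-21 (0.26), and FADS2 (0.56) and FDPS (0.16) within OVSAHO. The median average change of the members was -0.09. Without the OV-90 libraries, a choice made after seeing the data, FDPS no longer passed (adjusted p = 0.343), and HMGCS1, IDI1 and SCD did, to lower values.

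Each line's change was also tested against the mean change of the other 3. In Kuramochi 3 members were higher and 19 lower than that mean, against 26.8% and 27.3% of all genes, and in OVSAHO 13 were higher and 0 lower, the latter also at an unadjusted p, against 15.4% and 15%. In OV-90 16 were higher and 8 lower, against 26.7% and 23.6%, and in EFO-21 5 were higher and 10 lower, against 20.3% and 21.8%. Leaving out OV-90 library 2 or 3 moved the counts of OV-90, OVSAHO and EFO-21. Leaving out Kuramochi library 4 gave 8 higher in EFO-21. No share of all genes is given for those fits, so the moved counts cannot be set against all genes. These 4 tests use the same libraries and are not independent.

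Other genes of the pathway outside the list, 50 in 6 groups, were all in the table. In Kuramochi 11 rose (22%) and 14 fell (28%), against 23.6% and 23.3% of all genes, and in OVSAHO 11 (22%) and 10 (20%), against 17.1% and 16.2%. In OV-90 16 rose (32%) and 5 fell (10%), against 18.1% and 17.9%, and in EFO-21 13 (26%) and 16 (32%), against 25% and 23.4%. The shares in Kuramochi and OVSAHO and the share that rose in EFO-21 were thus near those of all genes. Of the 9 genes of SREBP cleavage and turnover, 2 rose in Kuramochi, 3 in OVSAHO, 5 in OV-90 and 4 in EFO-21, and the others did not pass. MBTPS1, the protease that first cuts SREBPs, rose by 0.55 in EFO-21 (adjusted p = 8.81e-05) and 0.30 in Kuramochi (adjusted p = 0.0442). Among 10 further lipid genes driven by SREBPs, 2 rose and 4 fell in Kuramochi, 1 and 3 in OVSAHO, 3 and 1 in OV-90, and 2 and 3 in EFO-21. ELOVL6, an elongase of saturated fatty acids, fell by 1.79 in Kuramochi (adjusted p = 0.00019) and by 2.79 in EFO-21 (adjusted p = 7.22e-05), the lines where SCD and FADS2 fell. Its 3 resistant EFO-21 libraries lay in the lowest 10% of values, so that difference is not a measured fold.

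Of 7 genes of LXR and its targets, which export and remodel lipids when sterols are high, 1 rose and 3 fell in Kuramochi and in OVSAHO, 3 rose and 2 fell in OV-90, and 1 rose and 4 fell in EFO-21. For this group and those below, 23.6% of all genes rose and 23.3% fell in Kuramochi, and 17.1% and 16.2% in OVSAHO. In OV-90 18.1% rose and 17.9% fell, and in EFO-21 25% and 23.4%. Many counts of these small groups are near those shares and are not read as results. ABCG1, a sterol exporter, was lower in each resistant line, from means of 4.12 to 0.84 in Kuramochi, 6.68 to 6.21 in OVSAHO, 4.91 to 3.39 in OV-90 and 1.91 to 0.35 in EFO-21, and passed in all 4 (adjusted p = 4.91e-05, 0.00531, 0.0151 and 0.000406). Its resistant Kuramochi and EFO-21 libraries and 1 of its 3 parental EFO-21 libraries lay in the lowest 10% of values, so no fold is given for these lines. ABCA1, another exporter, fell by 1.5 in EFO-21 and 0.62 in OVSAHO and rose by 1.74 in OV-90. Of 8 genes of sterol uptake, trafficking and storage, 1 rose and 2 fell in Kuramochi, 3 and 1 in OVSAHO and 2 and 4 in EFO-21, and 4 rose in OV-90. VLDLR, a lipoprotein receptor, rose by 1.43 in Kuramochi and fell by 1.03 in EFO-21. It also rose in OVSAHO, from a mean of 1.83 to 3.25, but 1 parental library lay in the lowest 10% of values, so no fold is given. Of 8 isoprenoid branch genes 3 fell in Kuramochi, 1 in OV-90, 1 rose and 2 fell in OVSAHO, and 1 rose and 3 fell in EFO-21. Of 8 fatty acid oxidation genes 5 rose and 2 fell in Kuramochi, 2 and 1 in OVSAHO, 1 and 1 in OV-90, and 3 and 2 in EFO-21. CPT1A, which admits fatty acids to mitochondria, rose by 1.45 in Kuramochi (adjusted p = 0.000672), 0.86 in EFO-21 (adjusted p = 0.000182) and 0.39 in OVSAHO (adjusted p = 0.0127). Other genes of this group fell, ACADM by 0.89 in Kuramochi and CPT2 by 0.41 in EFO-21. ACAA2 fell by 0.47 in OVSAHO and 0.475 in OV-90 and rose by 1.03 in Kuramochi and 0.33 in EFO-21.

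**Figure D5:**
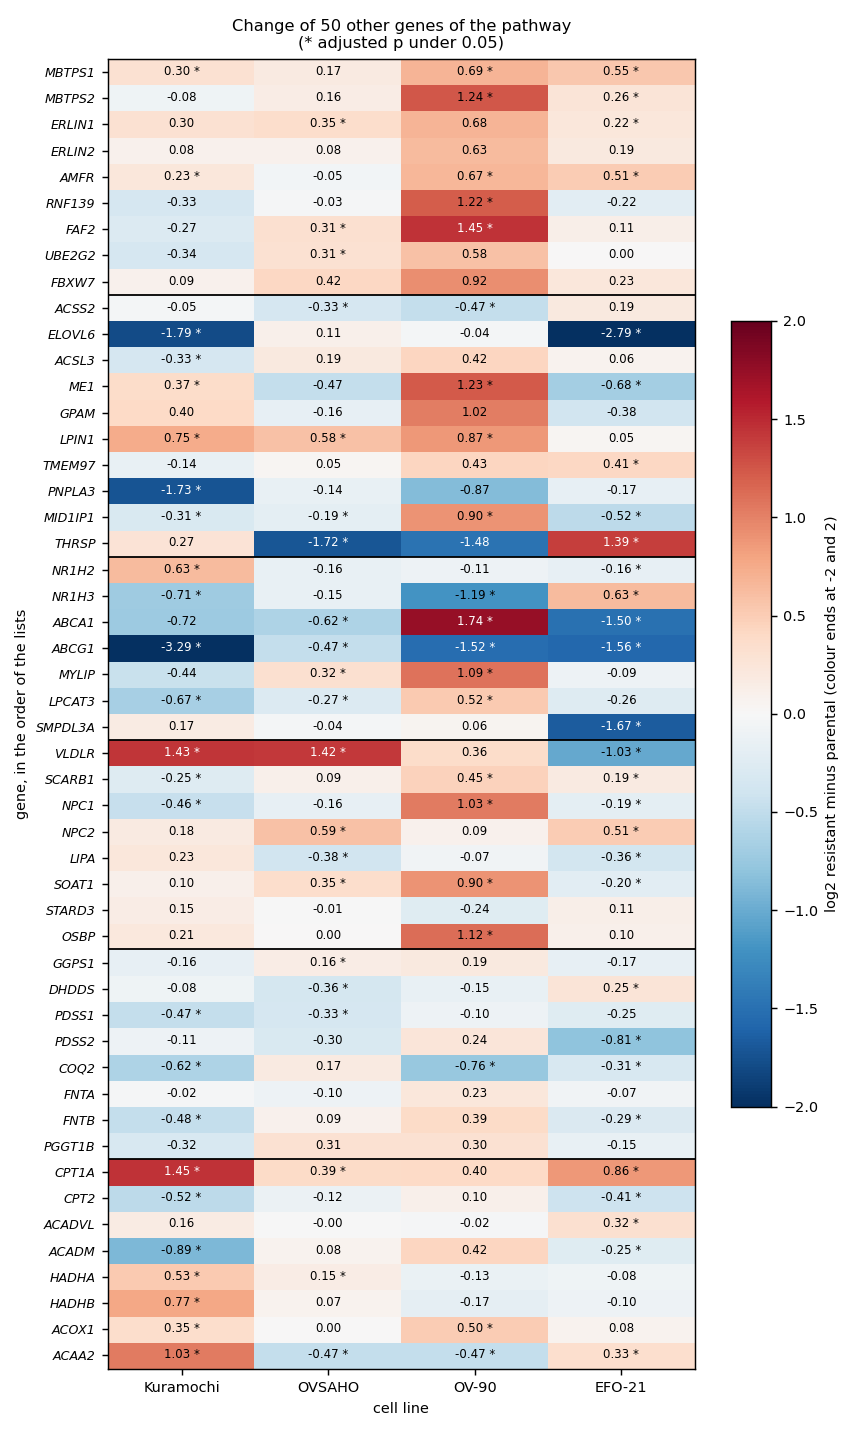
Change of the 50 other genes of the pathway (rows, black lines between the 6 groups) in the 4 lines (columns); colour and number give the log2 resistant minus parental change, colours end at -2 and 2, and a star marks an adjusted p under 0.05. ELOVL6 and ABCG1 have the darkest blue cells, at -2.79 in EFO-21 and -3.29 in Kuramochi.

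Cell type markers moved beside these changes, and their part in them was not tested. For the marker counts below, 23.6% of all genes rose and 23.3% fell in Kuramochi, and 17.1% and 16.2% in OVSAHO. In OV-90 18.1% rose and 17.9% fell, and in EFO-21 25% and 23.4%. Counts of so few markers are not read as results. Of 6 epithelial carcinoma markers, 5 fell in Kuramochi and OVSAHO, 2 in OV-90 and 4 in EFO-21, and the rest did not pass. In Kuramochi KRT18 fell from a mean of 12.31 to 11.18 and EPCAM from 6.47 to 2.69. PAX8, a marker of Mullerian epithelium, had parental means of 9.37 in Kuramochi, 9.02 in OVSAHO and 8.44 in EFO-21 but 2.10 in OV-90. EPCAM was highest in parental OV-90, at 12.30, against 6.47 in Kuramochi, 8.83 in OVSAHO and 10.66 in EFO-21. Parental means of KRT8 ran from 9.54 in OVSAHO to 11.40 in OV-90. Those of KRT18 ran from 9.78 in OVSAHO to 12.31 in Kuramochi, with 12.08 in OV-90. For KRT7 they ran from 2.76 in EFO-21 to 11.40 in OVSAHO, with 2.92 in OV-90. For MUC16 they ran from 1.15 in OV-90 to 6.86 in OVSAHO. ALB, of the 5 hepatocyte-type markers, was at 8.10 in parental OV-90. Of those 5, 3 fell in Kuramochi and 2 in OVSAHO, 1 rose and 2 fell in OV-90, and 1 rose in EFO-21. Of 3 blood cell markers 1 rose in Kuramochi and OV-90, 3 fell in OVSAHO, and 1 rose and 1 fell in EFO-21. CD68 rose from a mean of 4.18 to 6.97 in Kuramochi, 5.83 to 6.69 in OV-90 and 8.45 to 9.72 in EFO-21 and fell from 7.23 to 6.23 in OVSAHO, and PTPRC, which marks blood cells in general, fell from 4.58 to 3.71 in EFO-21. Of 3 endothelial markers 1 rose and 1 fell in Kuramochi, 2 rose in OVSAHO, 1 fell in OV-90 and 1 rose in EFO-21. The 2 that rose in OVSAHO, PECAM1 and CDH5, had all parental and resistant libraries in the lowest 10% of values. Of 3 fibroblast markers 2 fell in Kuramochi, 1 rose and 2 fell in OVSAHO, and 2 rose in EFO-21, while in OV-90 the 3 did not pass. Of 5 proliferation genes 2 fell in Kuramochi, 3 rose in OVSAHO, 2 rose and 1 fell in OV-90, and 4 rose and 1 fell in EFO-21. For MUC16, APOB, TTR and DCN in Kuramochi, PTPRC, CD3E, TTR and COL1A2 in OVSAHO, and APOB and COL1A2 in EFO-21, which count among these calls, all 3 libraries of the lower group lay in the lowest 10% of values.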

How the data were processed

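The authors prepared stranded mRNA libraries from the 4 lines and aligned the reads to GRCh37 (hg19). Per gene they took a log2 value from exon reads, for all 31 members by a robust linear model, and quantile normalized these deposited log2 values. Depth is unknown and precision was judged from the spread of libraries. Columns were grouped by line and form, since they carry library numbers and no replicate numbers. Within each line, limma 3.58.1 (R 4.3.3) was fitted to the values as deposited, with eBayes using the trend of variance with mean, two-sided p-values and Benjamini-Hochberg adjustment over 21658 genes, with no pseudocount or filter. Differences between lines used 8 group means. The code was tested on simulated data. Symbols (20745 genes) and promoters are from RefSeq, GRCh38.p14, and figures from matplotlib 3.10.9. Named genes are all 31 members and, from each list of other pathway genes and in each line, at most the 3 with the largest change among those that passed. Named markers, and the other pathway genes named among those that this rule allows, were picked with the values known. The members and lists were chosen with earlier results of these data known. Alternatives were 1 fit of 23 libraries, no trend, a filter at the 25th percentile of gene means, recentred libraries, a 2-fold threshold and leaving out each library.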

Additional observations from a re-analysis of the deposited data

Results flagged for a closer look

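For 25 pairs of a member and a line, the change in that line differed from the mean change of the other 3 lines by at least 2-fold and passed the limma test of that difference (adjusted p under 0.05). They were 12 of 31 members in Kuramochi, 4 in OVSAHO, 7 in OV-90 and 2 in EFO-21, against 25.8%, 10.7%, 21.6% and 17.2% of all genes. The share of members was thus above that of all genes in Kuramochi, near it in OVSAHO and OV-90, and below it in EFO-21. The values are log2 differences. In Kuramochi they were -1.19 for SREBF2, -1.08 for INSIG1, -1.97 for HMGCS1, -1.34 for TM7SF2, -1.28 for MSMO1 and 1.06 for NSDHL. Also in Kuramochi they were -1.03 for SC5D, -1.55 for DHCR7, -4.75 for STARD4, -1.60 for SCD, -1.16 for FADS1 and -1.14 for FADS2. In OVSAHO they were 1.0 for INSIG1, 2.47 for STARD4, 1.33 for FADS1 and 1.71 for FADS2. In OV-90 they were 1.18 for HMGCS1, 1.06 for MSMO1, 1.04 for SC5D, 1.96 for STARD4, 1.07 for ACACA, 2.41 for SCD and -1.01 for FADS1. In EFO-21 they were 1.08 for TM7SF2 and -1.51 for SCD. The STARD4 values of every line take in the Kuramochi libraries at the bottom of the scale, and the OV-90 values rest on 2 parental libraries that were far apart.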

How the results depend on the processing

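No paired analysis was possible because the columns carry library numbers but no replicate numbers. Depth is unknown, so no limit from it can be given. Of the members that passed, 18 of 22 in Kuramochi, 17 of 20 in OVSAHO, 0 of 16 in OV-90 by limma and 14 of 17 in EFO-21 passed with each library left out. With at least 2-fold, 1 member was higher and 8 lower in Kuramochi, 0 and 0 in OVSAHO, 2 and 0 in OV-90 and 0 and 4 in EFO-21, a stricter rule by construction, and those counts of 0 were also 0 at an unadjusted p under 0.05. In one fit of 23 libraries 2 were lower in OVSAHO and 15 higher in OV-90. In OV-90 the higher count was 2 without the trend and 9 with the filter, and no share of all genes is given for these fits. The causes of these shifts were not tested. Without resistant library 13, 14 or 15, OV-90 had 0 members higher and 0 lower by limma. Tests against the other 3 lines gave 0 to 2 lower in OVSAHO, 4 to 9 lower in OV-90 and 5 to 8 higher in EFO-21. Changes near 0 that had not passed turned sign when 1 library was left out, and the cause was not tested. In Kuramochi PMVK ranged from -0.10 to 0.066 and ACACA from -0.29 to 0.041. In OVSAHO the ranges were -0.020 to 0.041 for SCAP, -0.23 to 0.14 for INSIG2, -0.0040 to 0.087 for HMGCS1, -0.024 to 0.082 for FDFT1, -0.0036 to 0.14 for CYP51A1 and -0.025 to 0.10 for HSD17B7. In EFO-21 they were -0.13 to 0.0022 for MVD, -0.065 to 0.058 for LSS, -0.039 to 0.10 for HSD17B7 and -0.046 to 0.035 for DHCR7.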
